A study of Mus musculus with 11 samples.

Results

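Transcript levels of 38 genes of the interferon response and of class I antigen presentation were examined in mouse gastrocnemius, a calf muscle, collected after 36 h of fasting, which makes muscle waste. The genes were picked by symbol from the deposited table of estimated read counts, from a list drawn up with earlier results of these data known, and all 38 of the 55385 genes in the table that bear these symbols were found. They fall into 7 sensors and signalling factors, 12 effectors of the type I interferon response, Isg15 with its protease Usp18, 7 interferon-inducible GTPases, 6 other interferon-induced genes and 4 genes of antigen presentation.

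The series compared muscles lacking ZEB1 or ZEB2, transcription factors that bind DNA through zinc fingers and repress epithelial genes, with muscles of the matching floxed line. ZEB2_KO (ZEB2 flx/flx; HSACre) had 3 libraries and its reference ZEB2_control (ZEB2 flx/flx) had 3. ZEB1_KO (ZEB1 flx/flx; HSACre) had 3 libraries and ZEB1_control (ZEB1 flx/flx) had 2, which the labels number 2 and 3. HSA-Cre is Cre recombinase under the promoter of skeletal actin, which acts in muscle fibres. No group carried it without floxed alleles, so loss of a ZEB gene and presence of Cre cannot be told apart. Each library held RNA of 2 pooled mice, so the p-values measure the spread between pools. Strain, age and sex are not given in the labels used here.

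Interferons are cytokines, and those of type I are released by cells on meeting viral or bacterial nucleic acid. Type I interferon acts through JAK kinases on a complex that includes STAT2 and IRF9 and binds a promoter element called the ISRE. Type II interferon acts through an element called GAS and induces the factor IRF1. Many of the induced genes are also transcribed at a low tonic level without infection. Muscle fibres carry little class I antigen presentation in health and more of it in inflammatory muscle disease. In whole muscle, RNA of macrophages, endothelium and fibroblasts is measured together with that of the fibres, and fewer cells of a type cannot be told apart from less RNA per cell.

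Total counts were 27286288 to 46259639 per library. Levels are given in CPM (counts-per-million), with each library size scaled by the TMM method. Of the genes in the table, 15416 passed the filter on low counts, among them all 38 described here. Each targeted gene was lower in every library of its own knockout, without passing the test. Zeb1 was at 28.4, 28.6 and 30.4 CPM in ZEB1_KO libraries, against 41.2 and 51.1 CPM in ZEB1_control libraries (edgeR adjusted p 0.8). Zeb2 was at 18.3, 14.5 and 17.6 CPM in ZEB2_KO libraries, against 24.1, 23.1 and 25.8 CPM in ZEB2_control libraries (edgeR adjusted p 0.0775). Zeb1 was higher in every ZEB2_KO library, at 67.2, 60.2 and 76 CPM, against 47.7, 52.1 and 43.7 CPM in ZEB2_control libraries (edgeR adjusted p 0.0787). A whole-gene count includes exons outside the deleted part, and RNA of cells other than fibres. Xist, transcribed in females, was at 73.1, 2.09 and 3.29 CPM in ZEB2_KO, 185, 0.419 and 128 CPM in ZEB2_control, 468, 390 and 0.29 CPM in ZEB1_KO, and 371 and 154 CPM in ZEB1_control. The sex makeup of the pools thus differed, and its part in the results was not tested.

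In ZEB2_KO muscle most of these genes stood at lower levels than in ZEB2_control muscle. The fitted log2 fold change was below 0 for 35 of the 38 genes, beside 53.4% of all genes tested, and 34 to 38 of the 38 were below 0 under the other scalings. Its median was -0.60, beside -0.05 over all genes. Upper-quartile scaling moved the median of all genes to -0.18 and that of the 38 to -0.74. For 27 of the 38 genes every ZEB2_KO library lay below every ZEB2_control library, which held for 22.1% of all genes. An unadjusted p under 0.05 with a lower level was found for 22 of the 38 (17.3% of all genes), and with a higher level for 0 of the 38 (15.9% of all genes). The most negative log2 fold changes were those of Oasl2, Oas1a, Gbp2, Isg15, Gbp3, Igtp and Irgm2. The class I heavy chains H2-K1 and H2-D1 stood at about the same level in both groups.

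These differences did not pass the edgeR quasi-likelihood test over the 11 libraries at an adjusted p of 0.05. It called 0 of the 38 genes and 0% of all genes in the ZEB2 line, as limma-voom called 0 of the 38, and the smallest adjusted p among the 38 was 0.0787, for Parp14. Other fits of the same counts drew the line elsewhere. DESeq2 called 10 of the 37 genes to which it gave an adjusted p, all lower in ZEB2_KO, beside 8.34% of all genes called lower. These were Ifih1, Ddx58, Irf1, Ifit2, Oasl2, Isg15, Gbp2, Igtp, Irgm2 and Parp14. The edgeR test on the 6 ZEB2 libraries alone called 13 of the 38, all lower, beside 6.54% of all genes. It added Gbp3, Gbp7, Iigp1 and Ifit3b and left out Ifit2. Each count depended on single libraries. Without ZEB2_KO 1 DESeq2 called 5 of the 35 with an adjusted p (6.34% of all genes called lower), without ZEB2_KO 2 it called 4 of 36 (6.31%), and without ZEB2_KO 3 it called 0 of 31 (0.751%). Without ZEB2_control 1 it called 1 of 38 (5.37%) and without ZEB2_control 2 it called 4 of 36 (5.84%). Without ZEB2_control 3 it gave an adjusted p to 3 of the 38 and called 0 (0.465%). The test on the ZEB2 libraries alone called 9 of the 38 without ZEB2_KO 1 (3.24% of all genes called lower) and 1 without ZEB2_control 1 (1.09%). It called 0 of the 38, and 0 genes in all, without each of the other 4 libraries.

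**Figure D1:**
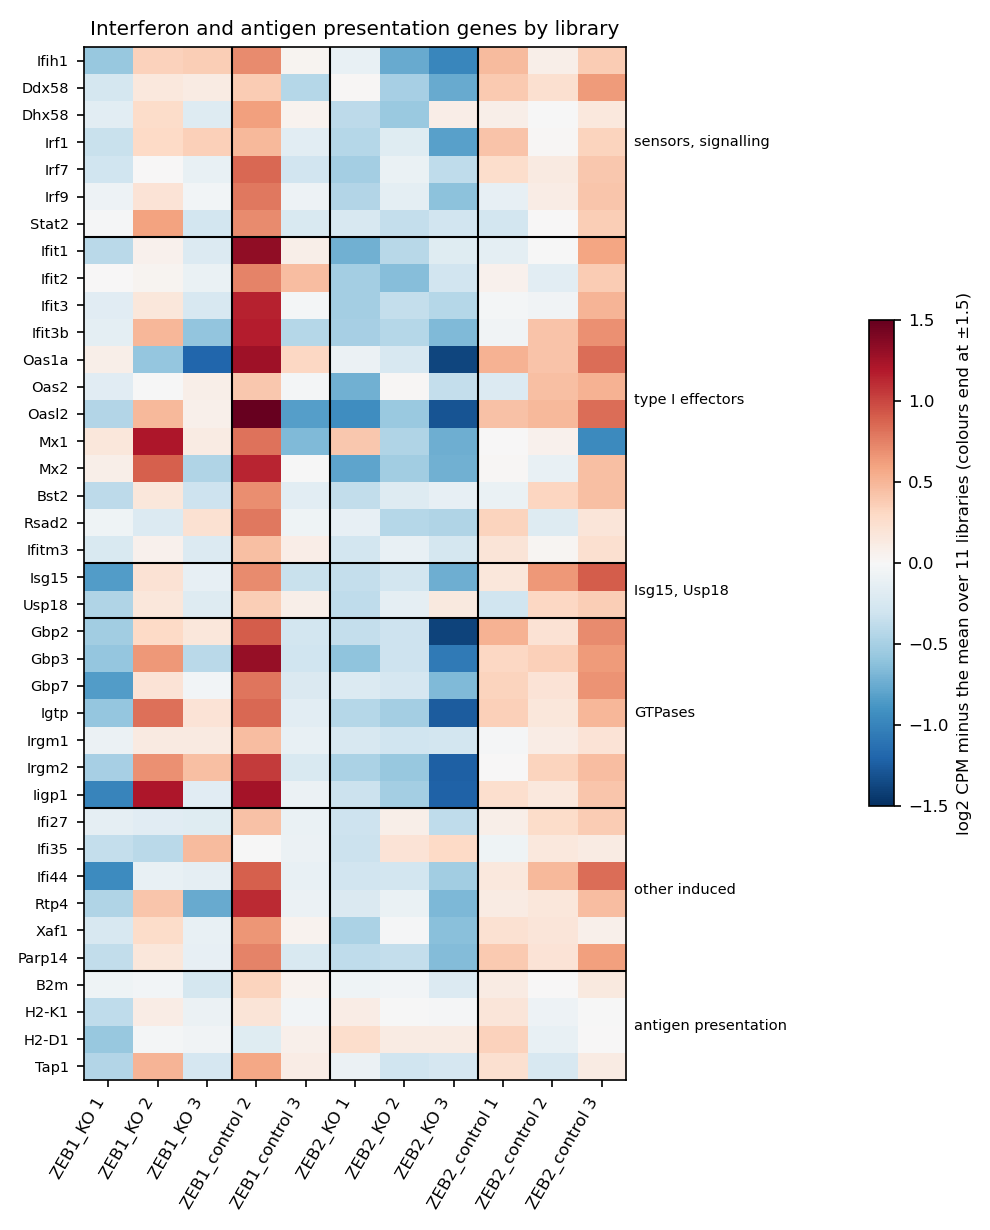
Level of each of the 38 genes in each library, as log2 CPM minus the gene's mean over the 11 libraries, with genes in rows by role and libraries in columns by group. ZEB1_control 2 is the highest library for 31 genes, and the 3 ZEB2_KO columns are below the mean for most genes, with ZEB2_KO 3 the lowest library for 16.

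In the ZEB1 line the fitted direction rested on 1 control library. The fitted log2 fold change was below 0 for 36 of the 38 genes, beside 48.7% of all genes, with a median of -0.40 beside 0.0069. Every ZEB1_KO library lay below both ZEB1_control libraries for 7 of the 38 genes (6.69% of all genes). A lower level with an unadjusted p under 0.05 was found for 7 of the 38 (1.6% of all genes), and a higher one for 0 (1.64% of all genes). The edgeR test called 0 of the 38 and 0% of all genes, and each of the 38 had an adjusted p of 1. DESeq2 called 0 of the 38 as well, beside 0.0215% of all genes called lower. Without ZEB1_control 2 the median was 0.04, with 17 genes lower and 21 higher. Without ZEB1_control 3 it was -0.77, with all 38 lower, and 35 of the 38 were then without overlap, beside 26.1% of all genes in the same comparison of 3 libraries with 1.

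**Figure D2:**
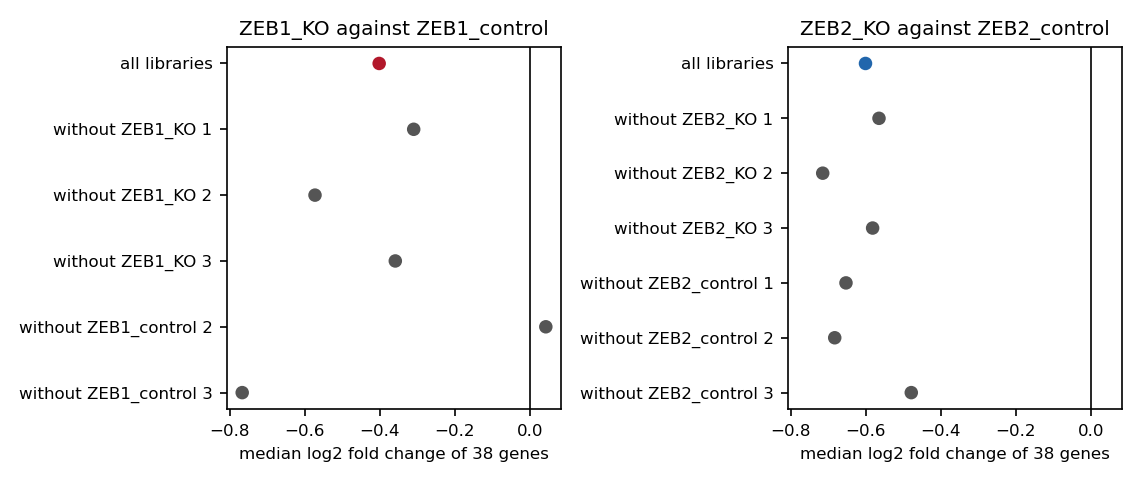
Median fitted log2 fold change of the 38 genes (x axis) with all libraries and with each library of the line left out (y axis), for ZEB1_KO against ZEB1_control on the left and ZEB2_KO against ZEB2_control on the right. The ZEB2 medians stay between -0.72 and -0.48, while the ZEB1 medians run between -0.77 and 0.04.

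Promoter sequences are shown because the interferon-activated factors bind there. RefSeq windows of 250 bases before to 50 after the start (GRCm38.p6) were at hand for 29 of the 38 genes, 34 windows in all. An ISRE-type motif (GAAANNGAA, either strand) was found in 19 of these 34 windows (55.9%), beside 8.56% of the 32851 mouse windows of that length. A GAS-type motif (TTCNNNGAA, either strand) was found in 9 of the 34 (26.5%), beside 8.3% of all windows. By gene, 19 of the 29 held the ISRE type, 9 the GAS type, 6 both and 7 neither. Those with neither were Irf7, Irf9, Oasl2, Xaf1, H2-K1, H2-D1 and Tap1. ISRE-type matches can overlap each other, and in Bst2 and Ifitm3 a match of one type shares bases with a match of the other. A match is a run of letters, not a shown binding site.

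The 4 genes with the most ISRE-type matches, 3 each, were Ifit1, Ifit3, Ifit3b and Isg15. The 250 bases before their starts are given 5′ to 3′ on the gene's strand, with the matched bases in capitals.
Ifit1, chr19:34640639-34640888, plus strand: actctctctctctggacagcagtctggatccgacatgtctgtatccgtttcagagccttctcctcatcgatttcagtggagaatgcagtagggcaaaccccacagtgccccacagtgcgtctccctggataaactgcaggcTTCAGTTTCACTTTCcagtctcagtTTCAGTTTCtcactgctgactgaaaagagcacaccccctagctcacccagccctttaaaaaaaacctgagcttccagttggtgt
Ifit3, chr19:34583279-34583528, plus strand: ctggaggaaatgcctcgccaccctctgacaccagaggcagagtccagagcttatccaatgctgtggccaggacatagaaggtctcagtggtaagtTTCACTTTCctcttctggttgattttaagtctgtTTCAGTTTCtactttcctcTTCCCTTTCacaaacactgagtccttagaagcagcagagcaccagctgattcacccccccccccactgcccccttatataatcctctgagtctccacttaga
Ifit3b, chr19:34607707-34607956, plus strand: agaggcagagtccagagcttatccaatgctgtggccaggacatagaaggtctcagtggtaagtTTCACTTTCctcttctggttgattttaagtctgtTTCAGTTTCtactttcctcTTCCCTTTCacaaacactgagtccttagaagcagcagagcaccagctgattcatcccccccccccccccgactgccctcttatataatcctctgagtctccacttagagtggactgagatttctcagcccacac
Isg15, chr4:156200819-156201068, minus strand: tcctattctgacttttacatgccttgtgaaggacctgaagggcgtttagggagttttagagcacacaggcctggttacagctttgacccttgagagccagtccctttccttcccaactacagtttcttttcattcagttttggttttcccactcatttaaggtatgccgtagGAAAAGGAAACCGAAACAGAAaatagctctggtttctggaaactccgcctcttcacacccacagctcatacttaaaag
In Isg15 the 3 matches form a single run, and in Ifit1 a pair of matches overlaps. The windows of Ifit3 and Ifit3b share an unbroken run of 169 bases that holds all 3 of their matches.

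The sensors and signalling factors start the response. Ddx58 (RIG-I, chr4:40203773-40239828) and Ifih1 (MDA5) are helicases that bind viral RNA. Ddx58 stood at 4.69, 3.27 and 2.73 CPM in ZEB2_KO libraries, against 6.12, 5.48 and 7.24 CPM in ZEB2_control libraries. Ifih1 stood at 4.03, 2.55 and 2.17 CPM in ZEB2_KO libraries, against 6.06, 4.64 and 5.68 CPM in ZEB2_control libraries. For both genes the ZEB2 groups did not overlap, and ZEB2_KO 1 was the highest of the knockout libraries. The log2 fold change was -0.82 (SE 0.26, edgeR adjusted p 0.0887) for Ddx58 and -0.91 (SE 0.31, edgeR adjusted p 0.0946) for Ifih1, and DESeq2 gave adjusted p-values of 0.0359 and 0.0437. Ddx58 stood at 3.86, 5.18 and 5.08 CPM in ZEB1_KO libraries, against 6.08 and 3.43 CPM in ZEB1_control libraries, and Ifih1 at 2.92, 5.54 and 5.63 CPM in ZEB1_KO libraries, against 7.13 and 4.48 CPM in ZEB1_control libraries. There the groups overlapped, with log2 fold changes of -0.01 (SE 0.29) and -0.31 (SE 0.34). Dhx58 (LGP2), a helicase that modulates both, was below 1 CPM in every ZEB2 library, and its ZEB2 groups overlapped at -0.37 (SE 0.30).

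Irf1, a transcription factor induced most by type II interferon, had the highest mean CPM among the sensors and signalling factors. It stood at 6.75, 8.03 and 5.18 CPM in ZEB2_KO libraries, against 12.3, 9.21 and 11.5 CPM in ZEB2_control libraries. The groups did not overlap, and the log2 fold change was -0.72 (SE 0.24, edgeR adjusted p 0.0934). Irf1 stood at 7.24, 11.3 and 11.8 CPM in ZEB1_KO libraries, against 12.8 and 8.15 CPM in ZEB1_control libraries, with overlap and a log2 fold change of -0.05 (SE 0.27). Irf7, which amplifies type I interferon production, stood at 3.73, 4.97 and 4.08 CPM in ZEB2_KO libraries, against 6.43, 5.9 and 7.11 CPM in ZEB2_control libraries. It stood at 4.35, 5.38 and 4.96 CPM in ZEB1_KO libraries, against 9.8 and 4.37 CPM in ZEB1_control libraries. ZEB1_control 2 was above all other libraries for Irf7, and the other ZEB1 libraries spanned a narrow range. The log2 fold change of Irf7 was -0.60 (SE 0.26, edgeR adjusted p 0.135) in the ZEB2 line and -0.53 (SE 0.29) in the ZEB1 line. Irf9 and Stat2, which belong to the type I complex, differed by -0.54 (SE 0.24) and -0.35 (SE 0.28) on the log2 scale in the ZEB2 line. The Stat2 groups overlapped there.

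**Figure D3:**
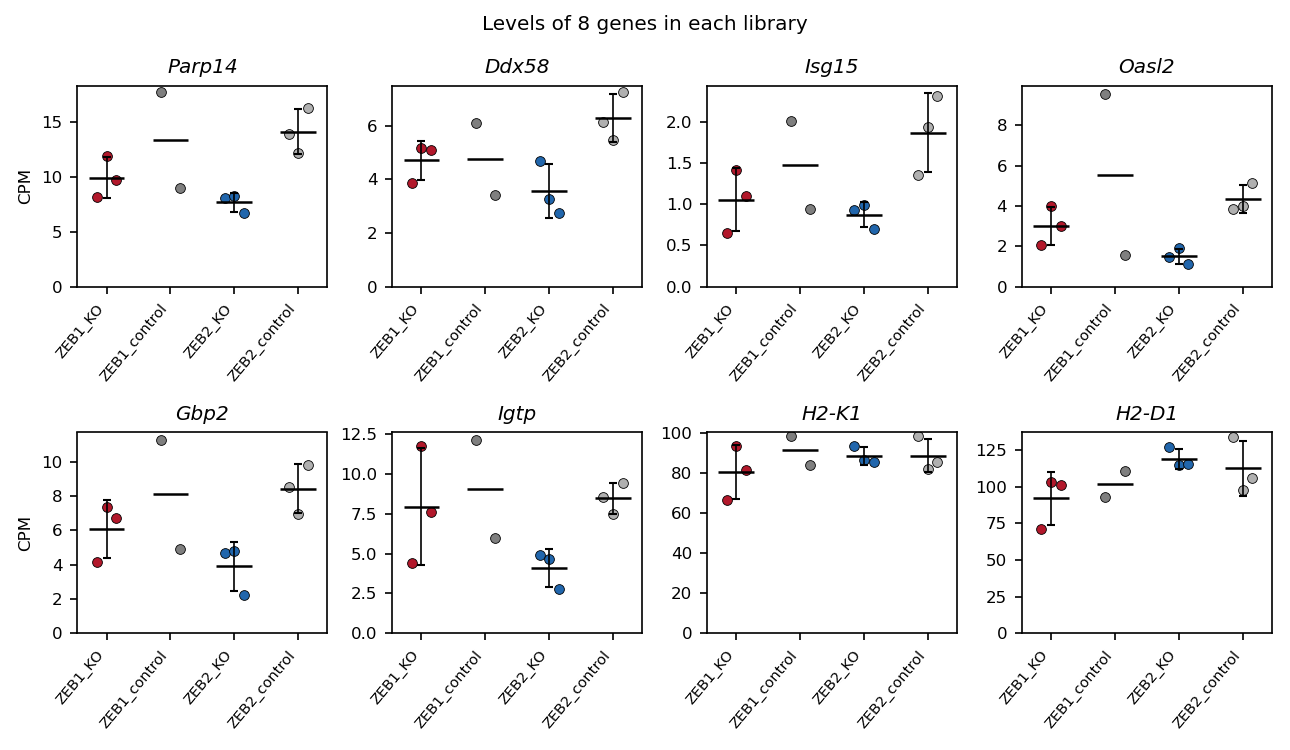
Level of 8 genes (CPM, axes from 0) in every library by group, with points for libraries, the mean as a line, and SD bars for groups of 3 libraries. Parp14, Ddx58, Isg15, Oasl2, Gbp2 and Igtp lie lower in all 3 ZEB2_KO libraries than in any ZEB2_control library, while the ZEB2 groups overlap for H2-K1 and H2-D1.

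The Ifit genes are neighbours on chromosome 19 and encode proteins that bind foreign RNA or scaffold those that do. Ifit2 had the smallest unadjusted p of the 38 in the ZEB1 line. It stood at 4.87, 4.99 and 4.53 CPM in ZEB1_KO libraries, against 8.15 and 6.68 CPM in ZEB1_control libraries. All 3 knockout libraries lay below both controls, at a log2 fold change of -0.63 (SE 0.20) and an unadjusted edgeR p of 0.0101 (adjusted p 1). Ifit2 stood at 3.37, 3.08 and 3.97 CPM in ZEB2_KO libraries, against 5.07, 4.35 and 6.35 CPM in ZEB2_control libraries. The groups did not overlap there either, at -0.60 (SE 0.19, edgeR adjusted p 0.0858). Ifit1 stood at 1.98, 2.77 and 2.29 CPM in ZEB1_KO libraries, against 6.77 and 2.83 CPM in ZEB1_control libraries, and in the ZEB2 line at 1.58, 1.98 and 2.34 CPM in ZEB2_KO libraries, against 2.38, 2.64 and 4.04 CPM in ZEB2_control libraries. The ZEB1_control pair were far apart for Ifit1, at a log2 fold change of -1.03 (SE 0.36) in the ZEB1 line, and the ZEB2 groups were separated by a narrow gap at -0.62 (SE 0.33, edgeR adjusted p 0.208). Of the 50-base stretches of Ifit1 transcripts, 7.13% also occur in another gene.

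Ifit3 and Ifit3b are near-copies: 51.2% of the 50-base stretches of Ifit3 transcripts also occur in Ifit3b, and 44.5% the other way. Their separate counts are therefore uncertain. Ifit3 stood at 3.64, 4.03 and 3.86 CPM in ZEB2_KO libraries, against 5.07, 4.99 and 7.4 CPM in ZEB2_control libraries. Ifit3b stood at 1.46, 1.54 and 1.29 CPM in ZEB2_KO libraries, against 2.01, 2.83 and 3.39 CPM in ZEB2_control libraries. The sum of both, which does not depend on how reads were split between them, was 5.11, 5.57 and 5.15 CPM in ZEB2_KO, against 7.08, 7.83 and 10.8 CPM in ZEB2_control. The groups did not overlap for either gene or for the sum. Ifit3 stood at 4.61, 5.86 and 4.38 CPM in ZEB1_KO libraries, against 11.6 and 5.07 CPM in ZEB1_control libraries, and Ifit3b at 1.88, 2.96 and 1.36 CPM in ZEB1_KO libraries, against 4.8 and 1.54 CPM in ZEB1_control libraries. The sum was 6.49, 8.82 and 5.75 CPM in ZEB1_KO, against 16.4 and 6.61 CPM in ZEB1_control, with ZEB1_control 3 inside the range of the knockouts. The log2 fold changes of Ifit3 and Ifit3b were -0.60 (SE 0.28, edgeR adjusted p 0.161) and -0.94 (SE 0.41, edgeR adjusted p 0.138) in the ZEB2 line, and -0.75 (SE 0.31) and -0.62 (SE 0.45) in the ZEB1 line.

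The OAS genes encode enzymes or relatives of enzymes that sense double-stranded RNA. Oasl2 had the largest fitted difference of the 38 in the ZEB2 line. It stood at 1.46, 1.91 and 1.13 CPM in ZEB2_KO libraries, against 3.87, 4 and 5.14 CPM in ZEB2_control libraries. No libraries overlapped, at a log2 fold change of -1.52 (SE 0.53, edgeR adjusted p 0.0977) and a DESeq2 adjusted p of 0.0271. Oasl2 stood at 2.08, 3.99 and 2.99 CPM in ZEB1_KO libraries, against 9.53 and 1.57 CPM in ZEB1_control libraries. The ZEB1_control libraries were the highest and the lowest of the 5 ZEB1 libraries, on either side of the knockouts. The log2 fold change of -0.88 (SE 0.56) became 0.92 without ZEB1_control 2 and -1.66 without ZEB1_control 3. Oas1a was scarce, and 57.6% of its 50-base stretches also occur in Oas1g. It stood at 0.567, 0.506 and 0.197 CPM in ZEB2_KO libraries, against 0.897, 0.838 and 1.13 CPM in ZEB2_control libraries. It was at 0.649, 0.386 and 0.232 CPM in ZEB1_KO libraries, against 1.54 and 0.769 CPM in ZEB1_control libraries. Neither line showed overlap for Oas1a, at -1.17 (SE 0.47, edgeR adjusted p 0.119) and -1.46 (SE 0.52). The sum with Oas1g was 0.567, 0.575 and 0.282 CPM in ZEB2_KO, against 1.11, 1.45 and 1.4 CPM in ZEB2_control. Oas2 differed by -0.62 (SE 0.26) in the ZEB2 line, with overlap.

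Among the remaining effectors, Ifitm3, a membrane protein that blocks virus entry, had the highest mean CPM. It stood at 23.4, 26.1 and 23.6 CPM in ZEB2_KO libraries, against 32.4, 28.8 and 33.5 CPM in ZEB2_control libraries. It was at 24.2, 29.6 and 24.6 CPM in ZEB1_KO libraries, against 38.8 and 30.3 CPM in ZEB1_control libraries. The knockout libraries lay below the controls in both lines, at -0.37 (SE 0.14, edgeR adjusted p 0.104) and -0.40 (SE 0.15). Bst2 (tetherin, which holds budding virus at the cell surface) and Rsad2 (viperin, which makes an antiviral nucleotide) differed by -0.47 (SE 0.25) and -0.45 (SE 0.23) in the ZEB2 line and by -0.49 (SE 0.27) and -0.43 (SE 0.26) in the ZEB1 line. The Mx genes, dynamin-like GTPases, are typed as polymorphic pseudogenes in the deposited table and averaged 0.413 CPM (Mx1) and 0.506 CPM (Mx2). Mx2 differed by -0.94 (SE 0.48) and -0.44 (SE 0.50) in these lines. Mx1 differed by 0.06 (SE 0.60) in the ZEB2 line, -0.05 under upper-quartile scaling, and by 0.37 (SE 0.64) in the ZEB1 line.

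Isg15 is a ubiquitin-like protein attached to other proteins, and Usp18 removes it and damps signalling at the type I receptor. Isg15 (chr4:156199424-156200818) stood at 0.926, 0.989 and 0.704 CPM in ZEB2_KO libraries, against 1.36, 1.93 and 2.31 CPM in ZEB2_control libraries. The groups did not overlap, at -1.09 (SE 0.37, edgeR adjusted p 0.094) and a DESeq2 adjusted p of 0.0467. It was at 0.649, 1.42 and 1.1 CPM in ZEB1_KO libraries, against 2 and 0.944 CPM in ZEB1_control libraries, with overlap at -0.48 (SE 0.41). Usp18 stood at 1.19, 1.43 and 1.75 CPM in ZEB2_KO libraries, against 1.27, 1.97 and 2.05 CPM in ZEB2_control libraries. Usp18 stood at 1.14, 1.77 and 1.36 CPM in ZEB1_KO libraries, against 2.04 and 1.68 CPM in ZEB1_control libraries. Both lines showed overlap for Usp18, at -0.27 (SE 0.28, edgeR adjusted p 0.499) and -0.38 (SE 0.31).

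The interferon-inducible GTPases attack the vacuoles of intracellular microbes, and the Irgm members regulate the others of their family. All 7 had every ZEB2_KO library below every ZEB2_control library (22.1% of all genes), with a median log2 fold change of -1.0. Gbp2 (chr3:142620602-142638008) stood at 4.66, 4.81 and 2.25 CPM in ZEB2_KO libraries, against 8.57, 6.96 and 9.82 CPM in ZEB2_control libraries. Igtp (chr11:58199556-58207591) stood at 4.9, 4.65 and 2.76 CPM in ZEB2_KO libraries, against 8.54, 7.47 and 9.42 CPM in ZEB2_control libraries. ZEB2_KO 3 was well below the other knockouts for both. The log2 fold change was -1.11 (SE 0.36, edgeR adjusted p 0.0907) for Gbp2 and -1.05 (SE 0.37, edgeR adjusted p 0.099) for Igtp. Irgm1, the most abundant GTPase by mean CPM, stood at 12.8, 12.2 and 12.4 CPM in ZEB2_KO libraries, against 14.9, 16.3 and 17.4 CPM in ZEB2_control libraries. Its groups lay apart by a small step, at -0.38 (SE 0.15, edgeR adjusted p 0.121). Irgm2, Gbp3, Gbp7 and Iigp1 had log2 fold changes of -1.0, -1.08, -0.78 and -0.92. Igtp and Irgm2 share 162 exonic bases on the same strand, and 11.8% of the 50-base stretches of Igtp occur in Irgm2, so their counts are not fully separate.

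In the ZEB1 line the 7 GTPases all overlapped, with a median log2 fold change of -0.41. Over all genes in that line 6.69% lay below without overlap and 7.19% above. Gbp2 stood at 4.16, 7.37 and 6.73 CPM in ZEB1_KO libraries, against 11.3 and 4.93 CPM in ZEB1_control libraries. Igtp stood at 4.42, 11.8 and 7.63 CPM in ZEB1_KO libraries, against 12.1 and 5.95 CPM in ZEB1_control libraries, and Irgm1 at 14.2, 16.6 and 16.6 CPM in ZEB1_KO libraries, against 20.8 and 14 CPM in ZEB1_control libraries. The summed level of the 7 was 43.3 to 92.1 CPM in ZEB1_KO, against 54.1 to 116 CPM in ZEB1_control, which is a wide spread within each group. In the ZEB2 line it was 33.7 to 48.1 CPM in ZEB2_KO, against 70.7 to 85.4 CPM in ZEB2_control.

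Of the other interferon-induced genes, Parp14, an ADP-ribosyltransferase (chr16:35832874-35871544), had the smallest p of the 38 in the ZEB2 line. It stood at 8.12, 8.26 and 6.73 CPM in ZEB2_KO libraries, against 14, 12.2 and 16.3 CPM in ZEB2_control libraries. The log2 fold change was -0.88 (SE 0.24, edgeR adjusted p 0.0787), and DESeq2 gave an adjusted p of 0.0167. Parp14 stood at 8.18, 11.9 and 9.78 CPM in ZEB1_KO libraries, against 17.8 and 9.06 CPM in ZEB1_control libraries, with overlap at -0.43 (SE 0.26). Ifi27, a small membrane protein of mitochondria and the most abundant of these 6 genes, stood at 12.7, 16.7 and 12 CPM in ZEB2_KO libraries, against 16.6, 19 and 20.5 CPM in ZEB2_control libraries. It was at 14.3, 13.9 and 13.8 CPM in ZEB1_KO libraries, against 21.2 and 14.6 CPM in ZEB1_control libraries. The ZEB2_KO 2 value of Ifi27 overlapped the lowest ZEB2_control, at -0.44 (SE 0.17, edgeR adjusted p 0.115), and the ZEB1_KO libraries lay just under ZEB1_control 3, at -0.36 (SE 0.19).

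Ifi44 stood at 1.17, 1.17 and 0.985 CPM in ZEB2_KO libraries, against 1.61, 2.03 and 2.61 CPM in ZEB2_control libraries. Ifi44 stood at 0.714, 1.32 and 1.31 CPM in ZEB1_KO libraries, against 2.73 and 1.33 CPM in ZEB1_control libraries. Neither line showed overlap for Ifi44, but ZEB1_KO 2 and ZEB1_KO 3 nearly met ZEB1_control 3, at -0.91 (SE 0.34, edgeR adjusted p 0.105) and -0.86 (SE 0.37). Rtp4, a chaperone of membrane receptors, stood at 1.95, 3.61 and 1.57 CPM in ZEB1_KO libraries, against 5.92 and 2.52 CPM in ZEB1_control libraries. It was at 2.3, 2.51 and 1.66 CPM in ZEB2_KO libraries, against 2.94, 3.03 and 3.71 CPM in ZEB2_control libraries. Its log2 fold changes were -0.83 (SE 0.40) with overlap in the ZEB1 line and -0.58 (SE 0.36, edgeR adjusted p 0.274) without overlap in the ZEB2 line. Xaf1 differed by -0.52 (SE 0.23) and -0.40 (SE 0.25) in these lines. Ifi35 differed by 0.01 (SE 0.24) in the ZEB2 line and 0.01 (SE 0.27) in the ZEB1 line, and both values turned negative under upper-quartile scaling, to -0.12 and -0.03. An antisense gene covers 16.8% of the exonic bases of Ifi35, and whether the counting used strand is not stated in the sources.

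The class I heavy chains stood at like levels in both ZEB2 groups. Class I molecules show cytosolic peptides to CD8 T cells, with a heavy chain (H2-K1 and H2-D1 here), the light chain B2m, and Tap1 as a subunit of the peptide pump. H2-K1 (chr17:33996017-34000347) stood at 93.7, 86.4 and 85.7 CPM in ZEB2_KO libraries, against 98.5, 82.4 and 85.9 CPM in ZEB2_control libraries. H2-D1 stood at 127, 115 and 115 CPM in ZEB2_KO libraries, against 134, 97.7 and 106 CPM in ZEB2_control libraries. The groups overlapped for both, at -0.0046 (SE 0.15, edgeR adjusted p 0.986) and 0.08 (SE 0.17, edgeR adjusted p 0.767). The 95% intervals ran from -0.33 to 0.32 for H2-K1 and from -0.30 to 0.46 for H2-D1, and the sign turned with the scaling, to 0.03 for H2-K1 with RLE size factors and -0.05 for H2-D1 with upper-quartile scaling. The sum of both heavy chains was 221, 202 and 201 CPM in ZEB2_KO, against 232, 180.0 and 192 CPM in ZEB2_control. Of their 50-base stretches 9.63% and 12.8% also occur in another gene, most often H2-Q10 for H2-K1 and H2-Q1 for H2-D1, and class I alleles differ between strains.

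B2m stood at 96.9, 98.8 and 88 CPM in ZEB2_KO libraries, against 111, 102 and 113 CPM in ZEB2_control libraries. Every knockout library was below every control, by a small step, at -0.20 (SE 0.13, edgeR adjusted p 0.285). B2m stood at 97.5, 98.6 and 84.7 CPM in ZEB1_KO libraries, against 128 and 105 CPM in ZEB1_control libraries, again without overlap, at -0.32 (SE 0.14) and an unadjusted edgeR p of 0.0465. H2-K1 stood at 66.5, 93.5 and 81.6 CPM in ZEB1_KO libraries, against 98.8 and 84.3 CPM in ZEB1_control libraries. H2-D1 stood at 71.1, 103 and 102 CPM in ZEB1_KO libraries, against 93.1 and 111 CPM in ZEB1_control libraries. ZEB1_KO 1 was the lowest library of the series for both heavy chains, and the ZEB1 groups overlapped, at -0.19 (SE 0.17) and -0.15 (SE 0.19). Tap1 differed by -0.27 (SE 0.25) in the ZEB2 line and -0.37 (SE 0.28) in the ZEB1 line, with overlap in both.

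**Figure D4:**
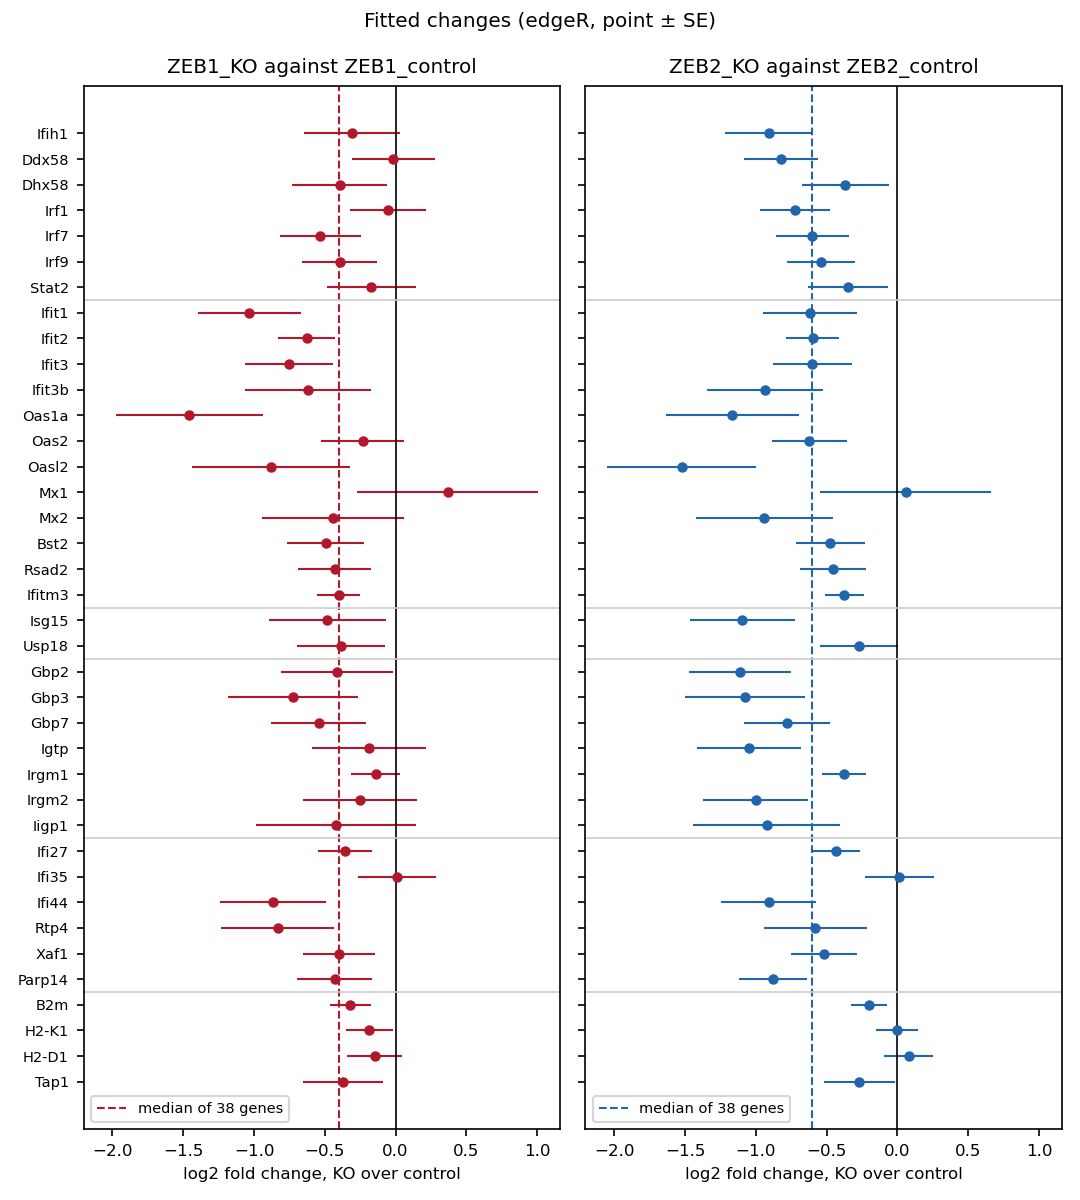
Fitted log2 fold change of each of the 38 genes (x axis, points, with SE as bars) by role, for ZEB1_KO against ZEB1_control on the left and ZEB2_KO against ZEB2_control on the right, with the median as a dashed line. The medians are -0.40 and -0.60, the GTPases lie farther left in the ZEB2 panel, and H2-K1, H2-D1, Ifi35 and Mx1 lie near 0 there, with a sign that depends on the scaling.

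The role groups had another order of fitted medians in each line, given here as a description with no test. In the ZEB2 line the median was -1.0 for the GTPases, -0.68 for Isg15 and Usp18, -0.61 for the effectors, -0.60 for the sensors and signalling factors, -0.55 for the other induced genes and -0.10 for antigen presentation. In the ZEB1 line the same medians were -0.41, -0.43, -0.56, -0.31, -0.42 and -0.25.

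The difference between both knockout effects was tested in the same fit, as the ZEB1 effect minus the ZEB2 effect. It was called for 0 of the 38 genes and 0% of all genes. Of the 38 differences 24 were above 0, beside 8412 of all 15416 genes tested. None of the 38 had an unadjusted edgeR p under 0.05, beside 4.17% of all genes with a difference below 0 and 5.09% above 0. DESeq2 called 0 of the 38, beside 0.0242% of all genes below 0 and 0.0666% above 0. limma-voom called 0 of the 38 and 0% of all genes. The smallest p was that of Ddx58, at 0.81 (SE 0.39), with an unadjusted edgeR p of 0.0654 and an adjusted p of 0.516. The next were Irf1 at 0.67 (SE 0.37, edgeR adjusted p 0.523), Igtp at 0.86 (SE 0.55, edgeR adjusted p 0.553), Irgm2 at 0.75 (SE 0.55, edgeR adjusted p 0.592) and Ifih1 at 0.60 (SE 0.46, edgeR adjusted p 0.599). For these genes the ZEB2 effect was the more negative one. The median difference was 0.13 with all libraries, beside 0.06 over all genes. It was 0.61 without ZEB1_control 2 and -0.22 without ZEB1_control 3.

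Between the floxed lines without Cre, 0 of the 38 genes passed the test of ZEB2_control against ZEB1_control, beside 0.0195% of all genes, and DESeq2 called 0 of the 38. A lower level in ZEB2_control with an unadjusted p under 0.05 was found for 1 of the 38, Ifit2 (1.75% of all genes). Ifit2 differed by -0.49 (SE 0.20), Ifit1 by -0.67 (SE 0.36), Ifit3 by -0.52 (SE 0.31), Ddx58 by 0.40 (SE 0.29) and Mx2 by -0.59 (SE 0.50), each with an edgeR adjusted p of 1. This comparison shares the ZEB1_control libraries with the ZEB1 comparison, and its median of -0.13 became 0.30 without ZEB1_control 2 and -0.52 without ZEB1_control 3.

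Libraries of one group differed among themselves across these genes. ZEB1_control 2 was higher than ZEB1_control 3 for 37 of the 38, with a median log2 difference of 0.91, beside 0.06 over all genes tested. It was the highest of the 11 libraries for 31 of the 38, beside 11.1% of all genes. ZEB1_KO 2 was higher than ZEB1_KO 1 for 34 of the 38. ZEB2_control 3 was higher than ZEB2_control 2 for 35 and than ZEB2_control 1 for 30. ZEB2_KO 3 was the lowest library for 16 of the 38, beside 23.5% of all genes. The median deviation from the mean over libraries was -0.36, -0.30 and -0.56 in ZEB2_KO, 0.16, 0.16 and 0.42 in ZEB2_control, -0.34, 0.19 and -0.11 in ZEB1_KO, and 0.74 and -0.09 in ZEB1_control. The ZEB2 groups did not overlap on this measure, and the ZEB1 groups did.

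Levels per length spanned a wide range. B2m averaged 119 CPM per kb of exon, followed by Ifitm3 at 42.3, H2-D1 at 41.4, H2-K1 at 29.6 and Ifi27 at 10.9 CPM per kb. The RNA sensors Ddx58 and Ifih1 averaged 0.686 and 0.566 CPM per kb, and Mx2 and Mx1 were lowest at 0.14 and 0.109 CPM per kb. Antigen presentation genes thus made up most of the summed level of the 38, with 294 to 323 of 440 to 488 CPM in ZEB2_KO and 288 to 350 of 521 to 591 CPM in ZEB2_control.

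The 6 interferon genes on the list were not detected. Ifnb1, Ifna2, Ifna4, Ifng, Ifnl2 and Ifnl3 had 0 counts in all 11 libraries, which allows at most 0.069 to 0.105 CPM per library (3 counts, counting error only). Of the 22 listed interferons, receptors and signalling genes, 15 were tested and 0 were called by edgeR in either line. With ZEB2_KO against ZEB2_control 7 were lower and 8 higher, with a median log2 fold change of 0.0084. Ifngr2, a chain of the type II receptor, stood at 21.2, 23.5 and 11.3 CPM in ZEB2_KO libraries, against 26.9, 31.7 and 38.3 CPM in ZEB2_control libraries, at -0.79 (SE 0.28, edgeR adjusted p 0.0994). Ptpn2, a phosphatase that dephosphorylates JAK and STAT proteins, stood at 17.6, 18.4 and 26.8 CPM in ZEB2_KO libraries, against 10.05, 15.7 and 10.04 CPM in ZEB2_control libraries, at 0.81 (SE 0.30, edgeR adjusted p 0.105). ZEB2_KO 3 was the most extreme library for both of these genes. With ZEB1_KO against ZEB1_control 9 were lower and 6 higher, with a median of -0.09, and the smallest p belonged to Ifnar1 at -0.21 (SE 0.14), Ifnar2 at -0.30 (SE 0.22) and Pias1 at -0.29 (SE 0.23).

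Of 22 listed genes of nucleic acid sensing, 20 were tested and 0 called by edgeR, while DESeq2 called 1 lower (8.34% of all genes) and 3 higher (9.78% of all genes) in the ZEB2 line and 0 in the ZEB1 line. In the edgeR fit of the ZEB2 line 3 of the 20 were lower with an unadjusted p under 0.05 (17.3% of all genes). Another 3 were higher (15.9% of all genes). With ZEB2_KO against ZEB2_control 11 were lower and 9 higher, with a median of -0.04. Eif2ak2 (PKR, a kinase that halts translation on double-stranded RNA) stood at 1.85, 2.44 and 1.83 CPM in ZEB2_KO libraries, against 4.45, 4.67 and 5.54 CPM in ZEB2_control libraries. Its groups did not overlap, at -1.26 (SE 0.29, edgeR adjusted p 0.0775) and a DESeq2 adjusted p of 0.00497. Tbk1, the kinase that activates IRF3, stood at 33, 32.6 and 40.1 CPM in ZEB2_KO libraries, against 19.2, 23.2 and 16 CPM in ZEB2_control libraries, at 0.86 (SE 0.29, edgeR adjusted p 0.096), and Riok3 differed by 0.52 (SE 0.15, edgeR adjusted p 0.0813). Tbk1 and Riok3 were thus higher in ZEB2_KO while Eif2ak2 was lower. With ZEB1_KO against ZEB1_control 13 were lower and 7 higher, with a median of -0.12, led by Ddx60 at -0.67 (SE 0.33), Eif2ak2 at -0.57 (SE 0.31) and Mavs at 0.44 (SE 0.26).

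A longer list held 68 other interferon-induced genes, of which 62 were tested and 0 called by edgeR. DESeq2 called 10 lower (8.34% of all genes) and 4 higher (9.78% of all genes) in the ZEB2 line, and 0 in the ZEB1 line. With ZEB2_KO against ZEB2_control 46 were lower and 16 higher, with a median of -0.51. An unadjusted edgeR p under 0.05 was found for 22 lower genes (17.3% of all genes) and 7 higher ones (15.9% of all genes). The leading genes were Parp9 at -0.88 (SE 0.24, edgeR adjusted p 0.0787), Samd9l at -1.09 (SE 0.30, edgeR adjusted p 0.0793) and Rnf213 at -1.18 (SE 0.33, edgeR adjusted p 0.0816). Parp9, a relative of Parp14, stood at 4.27, 4.95 and 4.03 CPM in ZEB2_KO libraries, against 9.37, 6.38 and 8.61 CPM in ZEB2_control libraries. Rnf213 stood at 14.7, 14.3 and 10.4 CPM in ZEB2_KO libraries, against 25.6, 26.8 and 36.7 CPM in ZEB2_control libraries. Neither gene showed overlap between these groups. With ZEB1_KO against ZEB1_control 47 were lower and 15 higher, with a median of -0.25. An unadjusted edgeR p under 0.05 was found for 6 lower genes (1.6% of all genes) and 1 higher one, Ifi30 (1.64% of all genes). Leading genes there were Epsti1 at -1.38 (SE 0.48), Ifi30 at 2.59 (SE 0.91) and Ifi47 at -0.82 (SE 0.29). Ifi30 stood at 96.4, 6.7 and 21.3 CPM in ZEB1_KO libraries, against 4.31 and 9.44 CPM in ZEB1_control libraries. ZEB1_KO 1 was far above the rest, and the groups overlapped.

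The class I list held 21 genes, all tested, 1 of which (H2-Ke6) encodes a dehydrogenase of the same region and takes no part in presentation. With ZEB2_KO against ZEB2_control 13 were lower and 8 higher, with a median of -0.13, led by Nlrc5 at -0.61 (SE 0.33, edgeR adjusted p 0.206), Psmb8 at -0.52 (SE 0.28, edgeR adjusted p 0.215) and Tap2 at -0.24 (SE 0.14, edgeR adjusted p 0.246). Nlrc5 is the transactivator of class I genes, and Psmb8 is a subunit of the immunoproteasome. With ZEB1_KO against ZEB1_control 16 were lower and 5 higher, with a median of -0.18, led by H2-T23 at -0.32 (SE 0.17), Tap2 at -0.28 (SE 0.16) and Tapbp at -0.24 (SE 0.14). Of 10 class II genes, which serve presentation to CD4 T cells by macrophages, dendritic cells and B cells, 9 were tested. All 9 were lower in the ZEB2 line, with a median of -0.42, led by H2-DMb1 at -0.81 (SE 0.35, edgeR adjusted p 0.134), H2-Aa at -0.60 (SE 0.32, edgeR adjusted p 0.208) and H2-DMa at -0.42 (SE 0.23, edgeR adjusted p 0.215). With ZEB1_KO against ZEB1_control 8 were lower and 1 higher, with a median of -0.34, led by H2-DMa at -0.76 (SE 0.25), Cd74 at -0.41 (SE 0.32) and Ctss at -0.34 (SE 0.27). edgeR called 0 class I and 0 class II genes in either line, beside 0% of all genes. DESeq2 also called 0 of both lists. Over all genes it called 8.34% lower and 9.78% higher in the ZEB2 line, and 0.0215% and 0.0914% in the ZEB1 line. An unadjusted edgeR p under 0.05 was found for 0 class I genes in either line. In the ZEB2 line 1 class II gene was lower at that p, beside 17.3% of all genes lower and 15.9% higher. In the ZEB1 line 1 was lower, beside 1.6% of all genes lower and 1.64% higher.

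Most macrophage, fibroblast and endothelial markers also had fitted fold changes below 0 in both knockouts. The 13 macrophage markers summed to 116 to 126 CPM in ZEB2_KO, against 137 to 183 CPM in ZEB2_control, with 11 of 13 lower and a median log2 fold change of -0.40. Mrc1, a macrophage scavenger receptor, stood at 8.18, 8.24 and 5.32 CPM in ZEB2_KO libraries, against 11.6, 12.4 and 16.6 CPM in ZEB2_control libraries, at -0.90 (SE 0.23, edgeR adjusted p 0.0775) and a DESeq2 adjusted p of 0.0131. The 10 fibroblast markers summed to 1747 to 1915 CPM in ZEB2_KO, against 1969 to 2499 CPM in ZEB2_control, with 9 of 10 lower. DESeq2 called 3 of them lower (8.34% of all genes), Col1a2, Col1a1 and Lum. Col1a1 stood at 33, 50.2 and 9.6 CPM in ZEB2_KO libraries, against 49.4, 115.5 and 163 CPM in ZEB2_control libraries, with overlap. The 10 endothelial markers summed to 519 to 582 CPM in ZEB2_KO, against 557 to 687 CPM in ZEB2_control, with overlap and 8 of 10 lower. Of these 10 markers DESeq2 called Kdr (adjusted p 0.0097) and Tek (adjusted p 0.0122) lower, beside 8.34% of all genes. The 10 fibre markers had 8 of 10 higher, at 123700 to 126200 CPM in ZEB2_KO, against 104500 to 111600 CPM in ZEB2_control. DESeq2 called 2 of them higher (9.78% of all genes), Ckm (adjusted p 0.0249) and Tnnt3 (adjusted p 0.0429). Myh1 and Mylpf went the other way. Myh1 was at -0.85 (SE 0.35, edgeR adjusted p 0.125). It stood at 2642, 2945 and 3336 CPM in ZEB2_KO libraries, against 6543, 4428 and 5068 CPM in ZEB2_control libraries, without overlap. Mylpf stood at 7299, 6854 and 4225 CPM in ZEB2_KO libraries, against 7800, 7485 and 8755 CPM in ZEB2_control libraries, also without overlap. The fibre markers were the most abundant of the marker lists in every library.

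In the ZEB1 line the macrophage markers summed to 139 to 206 CPM in ZEB1_KO, against 199 to 217 CPM in ZEB1_control, with 10 of 13 lower. The fibroblast markers summed to 1657 to 2316 CPM in ZEB1_KO, against 2693 to 2700 CPM in ZEB1_control, with all 10 lower. The sums of ZEB1_control 2 and 3 were close because Gsn and Dcn carry them, while the collagen markers differed, with Col3a1 at 189 CPM in ZEB1_control 2 and 95.1 CPM in ZEB1_control 3. The median deviation of the 10 markers was 0.59 in ZEB1_control 2 and 0.20 in ZEB1_control 3. Most fibroblast markers, like most of the interferon genes, thus stood higher in ZEB1_control 2. Gsn (1403 against 1579 CPM), Dcn (619 against 664 CPM) and Serping1 (85.83 against 86.96 CPM) were lower in ZEB1_control 2 than in ZEB1_control 3. Lymphocyte and NK cell markers were near 0: none of 13 passed the filter, and they summed to 0.535 to 0.627 CPM in ZEB2_KO, 0.838 to 1.05 CPM in ZEB2_control, 0.676 to 1.14 CPM in ZEB1_KO and 0.595 to 1.58 CPM in ZEB1_control. Cd8a had 0 counts in 8 of the 11 libraries. The dendritic cell markers summed to 6.17 to 7.41 CPM in ZEB2_KO, 7.58 to 10.5 CPM in ZEB2_control, 7.18 to 8.39 CPM in ZEB1_KO and 7.38 to 9.7 CPM in ZEB1_control, with 4 of 8 tested. The neutrophil markers summed to 1.32 to 2.39 CPM in ZEB2_KO, 1.75 to 2.23 CPM in ZEB2_control, 1.77 to 6.4 CPM in ZEB1_KO and 1.94 to 3.08 CPM in ZEB1_control, and Ly6g had 0 counts in 10 of 11 libraries. The part of any of these cells in the interferon results was not tested.

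**Figure D5:**
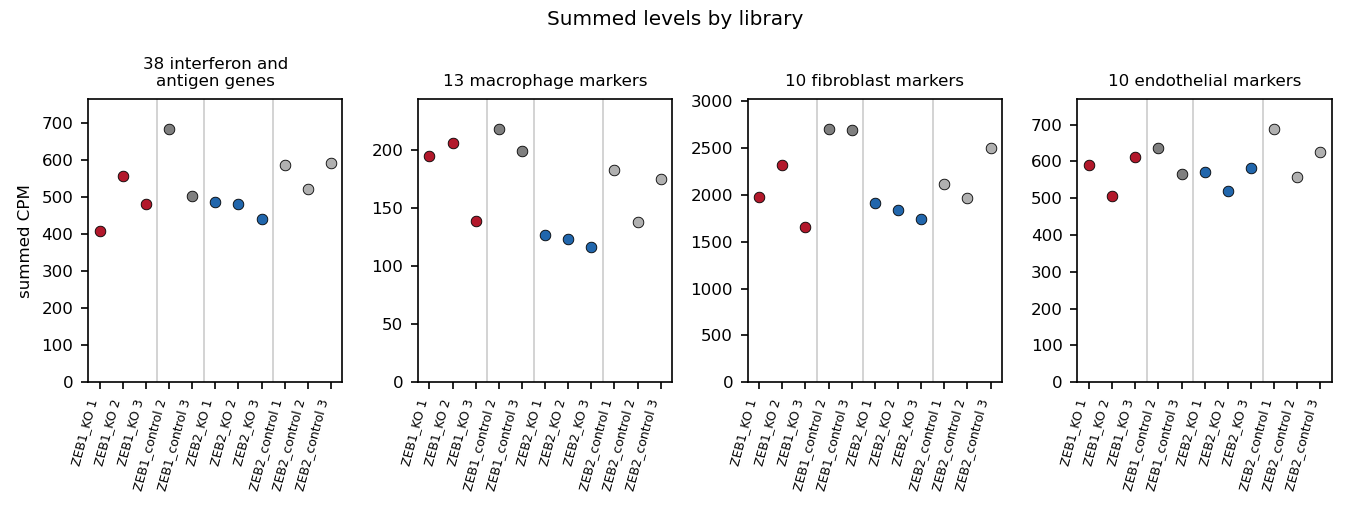
Summed CPM (y axes from 0) of the 38 genes and of macrophage, fibroblast and endothelial markers in each library (x axis, by group). The 3 ZEB2_KO libraries lie below the 3 ZEB2_control libraries for the 38 genes, the macrophage markers and the fibroblast markers, and overlap with them for the endothelial markers.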

How the data were processed

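RNA-seq libraries (TruSeq Stranded mRNA kit, Trizol RNA) came from gastrocnemius. The deposited values are estimated counts per gene, whole numbers as the authors rounded them; the submitters' processing notes name STAR, RSEM, DESeq2 and GRCm38, without versions. No source used here gives the annotation or the strand setting. Members and gene lists were chosen with earlier results of these data known.

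The counts were fitted with edgeR 4.0.16 (R 4.3.3): TMM scaling, a filter keeping genes with a count of about 10 in a smallest group and 15 in all (15416 genes, 99.96% of counts), a mean per group over 11 libraries in 4 groups, quasi-likelihood tests and Benjamini-Hochberg adjustment over all genes tested at 0.05. The standard error is the fold change over the root of F. DESeq2 1.42.0 and limma-voom 3.58.1, other scalings, filters, left-out libraries and a replicate block were alternatives. The fit was tested on simulated counts. Genes given in full were the 10 with the smallest p in each knockout comparison, the most abundant of each role, and Ifit3, Ifit3b, H2-K1 and H2-D1. Other lists name up to 3 genes of smallest p. Total counts of 27286288 to 46259639 per library limit precision at low genes. Deviations of same-numbered libraries correlated at 0.195, -0.0274 and -0.313 in the ZEB2 line and at 0.465 and 0.174 in the ZEB1 line, which has only 2 such pairs, so the numbers were not taken to pair libraries. No libraries of a group agreed within sampling noise. Coordinates are those of GRCm38. One gene of the signalling list is not reported here.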

Additional observations from a re-analysis of the deposited data

How the results depend on the processing

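With a replicate block the medians of the 38 genes were -0.35 (ZEB1), -0.63 (ZEB2), 0.23 (difference) and -0.05 (controls), 0 of the 38 were called, Ifi35 was at -0.0089 in the ZEB2 line, and 1 gene was called between the controls. Over all genes, those called in the ZEB2 line numbered 2519 with DESeq2, 348 without the filter (1 of the 38) and 2077 with the ZEB2 libraries alone. DESeq2 called 10 of the 37 with an adjusted p, beside 8.34% of all genes called lower. The ZEB2 libraries alone called 13 of the 38, beside 6.54% of all genes called lower. In the ZEB1 line DESeq2 called 21 genes, limma-voom 1 and no filter 6. For the difference DESeq2 called 15 and no filter 2, and between the controls DESeq2 called 16, RLE 5 and no filter 7. Some log2 fold changes near 0 turned sign. Ddx58 (ZEB1) was 0.0268 with limma-voom and 0.0026 without the filter. Ifi35 was -0.0399 with limma-voom, -0.0281 with upper-quartile scaling and -0.0194 with at least 1 CPM in 3 libraries (ZEB1), and -0.0017, -0.12 and -0.0011 (ZEB2). In the ZEB2 line H2-K1 was 0.0301 with DESeq2, 0.0272 with RLE and 0.0052 with the ZEB2 libraries alone, and upper-quartile scaling gave -0.05 for both Mx1 (-0.0525) and H2-D1. The cause was not tested.

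Leaving out each library in turn gave 0 to 5 called genes in the ZEB1 line, 1 to 5 between the controls and 0 to 3 for the difference. Median log2 fold changes ran from -0.767 to 0.0421 (ZEB1), -0.52 to 0.30 (controls) and -0.22 to 0.61 (difference). DESeq2 called 0 to 5 of the 38 (3 to 38 had an adjusted p), beside 0.465% to 6.34% of all genes called lower. The ZEB2 libraries alone called 0 to 9 of the 38, beside 0% to 3.24% of all genes called lower. In the ZEB1 line 7 to 35 were without overlap, beside 10.9% to 26.1% of all genes. These last 3 repeats were chosen after seeing the data. Single ZEB1 values ran from -0.38 to 0.44 for Ddx58, -0.89 to 0.29 for Gbp2, -1.32 to 0.29 for Gbp3, -0.97 to 0.0403 for Gbp7, -0.34 to 0.16 for Ifi35, -0.61 to 0.0532 for Ifih1, -1.22 to 0.41 for Ifit3b, -0.61 to 0.41 for Igtp, -1.25 to 0.39 for Iigp1, -0.35 to 0.29 for Irf1, -1.01 to 0.15 for Irf7 and -0.77 to 0.10 for Irf9. Further ones ran from -0.40 to 0.15 for Irgm1, -0.76 to 0.52 for Irgm2, -0.93 to 0.15 for Isg15, -0.24 to 1.45 for Mx1, -0.94 to 0.30 for Mx2, -1.66 to 0.92 for Oasl2, -0.84 to 0.12 for Parp14, -0.80 to 0.0439 for Rsad2 and -0.57 to 0.37 for Stat2. In the ZEB2 line they ran from -0.0135 to 0.22 for H2-D1, -0.0571 to 0.0752 for H2-K1, -0.0853 to 0.18 for Ifi35 and -0.42 to 0.32 for Mx1.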
